A study of Homo sapiens with 72 samples.

Results

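The genes described here are 9 members of the AP-1 family of transcription factors, measured by RNA sequencing in U2OS cells, a human osteosarcoma line, after 12 h with a compound or with its solvent. They are FOS, FOSB, FOSL1 and FOSL2 of the FOS family, JUN, JUNB and JUND of the JUN family, and ATF3 and JDP2, which are 9 of the 60371 genes in the deposited files. The list was drawn up with the homoharringtonine wells in view, where FOSB was very high and JDP2 very low, so the values under homoharringtonine against DMSO are given below as a description and without a test.

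AP-1 is a dimer of bZIP proteins, in which a leucine zipper holds a pair of subunits together and a basic region contacts DNA. JUN proteins can pair with each other and with FOS proteins, whereas FOS proteins need a JUN partner. JUN N-terminal kinase (JNK) phosphorylates JUN, and ERK signalling acts through ternary complex factors such as ELK1 on the FOS promoter. FOS, FOSB, JUN, JUNB and ATF3 are textbook immediate early genes, whose mRNA is made within minutes of a stimulus without new protein and is then degraded quickly, a process in which AUUUA motifs of the 3′ UTR take part. In bone, FOS family members are known for roles in osteoblasts and osteoclasts, and FOS itself for osteosarcoma in mice.

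The series held 72 wells, all of them U2OS cells: 18 wells with DMSO, the solvent, and 3 wells for each of 6 compounds at 100, 1000 and 10000 nM. The compounds were Triptolide, which blocks transcription by RNA polymerase II through the TFIIH helicase XPB, Homoharringtonine, which blocks elongation on the ribosome, Nilotinib, a BCR-ABL tyrosine kinase inhibitor, MK-2206, an allosteric AKT inhibitor, Pyrazolanthrone, an inhibitor of JNK, and Miglitol, an inhibitor of intestinal alpha-glucosidases. Nothing in the labels said that wells of a group came from separate cultures, so p-values measured the spread between wells. All comparisons used the same 18 DMSO wells and therefore were not independent of each other.

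In the DMSO wells the bone and mesenchymal markers SPARC (2144 ± 479 TPM, a share of the library corrected for gene length, SD, n = 18), COL1A1 (456 ± 80.4 TPM) and VIM (1842 ± 132 TPM) were high, RUNX2 (3.91 ± 0.684 TPM) and ALPL (4.08 ± 1.71 TPM) were low, COL1A2 was near 0 (0.0889 ± 0.0640 TPM) and TWIST1 was listed at 0 in all 18 wells. The median TPM of the epithelial, blood and muscle markers lay at or below 2.38, the value of EPCAM. Libraries held 0.0708 to 68.3 mil counts, with a median of 38.4 mil, and 3 of the 72 held fewer than 10 mil: Triptolide 100 nM replicate 2, Triptolide 1000 nM replicate 1 and DMSO replicate 10. Values without these wells (the deep wells) are given beside those with them, for the members at each triptolide dose and wherever a call changed.

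In the human genome (GRCh38) the 9 genes lie on 5 chromosomes. FOS (ENSG00000170345, chr14:75278826-75282230) and JDP2 (ENSG00000140044, chr14:75427716-75474111) are neighbours on the plus strand of chromosome 14, with 145 kb between the end of FOS and the start of JDP2. FOSB (ENSG00000125740, chr19:45467995-45475179, plus strand), JUNB (ENSG00000171223, chr19:12791486-12793315, plus strand) and JUND (ENSG00000130522, chr19:18279694-18281622, minus strand) are on chromosome 19. JUN (ENSG00000177606, chr1:58776845-58784048, minus strand) and ATF3 (ENSG00000162772, chr1:212565334-212620777, plus strand) are on chromosome 1, FOSL1 (ENSG00000175592, chr11:65892049-65900573, minus strand) is on chromosome 11, and FOSL2 (ENSG00000075426, chr2:28392448-28417317, plus strand) is on chromosome 2. JUN, JUNB and JUND each have 1 exon in the canonical transcript, as do 5.64% of 20046 protein-coding genes, and the other 6 members have 4 exons. The 3′ UTR of all 9 held ATTTA, the DNA form of the AUUUA motif, as did 67.5% of 19550 annotated 3′ UTRs. FOS held 5 copies in 806 bases, and 7.99% of the 3′ UTRs within 20% of that length held as many. For the other 8 members that share was 25.6% (JUNB) to 91.0% (JDP2).

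Because the members rose and fell together under some compounds and apart under others, their promoters were set side by side. The stretches are the 120 bases before the RefSeq start site of 7 members (GRCh38.p14), on the gene's own strand from 5′ to 3′. Capitals mark the cAMP response element core TGACGT, its reverse complement ACGTCA, or the 8-base element TGACNTCA, where N is any base, to which JUN and ATF proteins are known to bind.
FOS: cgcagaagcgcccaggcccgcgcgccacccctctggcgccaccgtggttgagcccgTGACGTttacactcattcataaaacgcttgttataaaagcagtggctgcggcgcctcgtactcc
FOSB: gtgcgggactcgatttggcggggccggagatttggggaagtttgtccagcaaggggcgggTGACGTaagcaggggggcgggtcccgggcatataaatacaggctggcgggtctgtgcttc
FOSL2: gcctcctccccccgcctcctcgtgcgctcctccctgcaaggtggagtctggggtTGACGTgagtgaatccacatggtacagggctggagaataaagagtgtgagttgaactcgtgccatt
JUN: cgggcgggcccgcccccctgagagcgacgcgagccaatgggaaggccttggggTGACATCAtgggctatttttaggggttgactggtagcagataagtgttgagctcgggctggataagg
JUNB: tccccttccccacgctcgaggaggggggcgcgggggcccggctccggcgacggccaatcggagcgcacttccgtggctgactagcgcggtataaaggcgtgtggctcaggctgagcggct
JUND: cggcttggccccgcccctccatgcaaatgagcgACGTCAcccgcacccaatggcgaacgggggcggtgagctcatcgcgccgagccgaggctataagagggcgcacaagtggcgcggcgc
JDP2: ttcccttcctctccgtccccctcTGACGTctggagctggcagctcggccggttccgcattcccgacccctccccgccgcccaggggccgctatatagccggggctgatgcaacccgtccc

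These stretches lie at chr14:75278708-75278827 for FOS, chr19:45467876-45467995 for FOSB, chr2:28392738-28392857 for FOSL2, chr1:58784048-58784167 for JUN, chr19:12791366-12791485 for JUNB, chr19:18281623-18281742 for JUND and chr14:75427902-75428021 for JDP2, which is upstream of the second of its 3 RefSeq starts in the promoter table. The search covered 250 bases before each start on both strands, and 8 of the 9 members had an entry. The core TGACGT began 64 bases before the start of FOS, 60 before FOSB, 66 before FOSL2 and 97 before the second start of JDP2. In 7.1% of 35097 promoters it was found somewhere in the 250 bases. JUN held TGACATCA from 67 bases before its start, a form of the element TGACNTCA found in 6.87% of promoters, and ATF3 held the same 8 letters from 123 bases before its first start. JUND held TGACGTCA from 200 bases before its start, which counts under both motifs, and ACGTCA from 87 bases before it. The other motifs searched were the AP-1 site TGANTCA (in 6.57% of promoters) and the CArG box bound by SRF (in 1.16%). Neither was in any window of the 8 members, and JUNB held none of the 4 motifs in its window. Sites more than 250 bases before a start were outside the search, so their absence from these promoters is not shown. A match to these letters is a description of the window and was not tested for binding.

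Under DMSO the members covered 2 orders of magnitude, from JDP2 to FOSB. Over the 17 DMSO wells above 10 mil counts, JDP2, a repressor that pairs with JUN proteins, stood highest at 68.1 ± 11.8 TPM (SD). It was followed by FOSL1, a FOS protein without the transactivation domain of FOS, at 62.6 ± 15.6 TPM, by JUN at 51.3 ± 8.53 TPM, by FOSL2 at 46.1 ± 5.26 TPM and by JUND, the constitutively expressed JUN protein, at 45.0 ± 13.7 TPM. ATF3, a stress-induced factor of the ATF family, stood at 19.3 ± 3.78 TPM, JUNB at 18.4 ± 3.36 TPM, FOS at 9.90 ± 2.07 TPM and FOSB at 0.614 ± 0.240 TPM. The ranges of neighbours in this order overlapped, except that each of the 17 wells had more FOS than any of them had FOSB. Within wells, JUND was above ATF3 and JUNB above FOS in all 17. The other neighbours kept this order in 7 (FOSL2 above JUND) to 14 (JUN above FOSL2) of the 17 wells.

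DMSO replicate 10, with 0.46 mil counts, stood above the 17 other DMSO wells for 8 of the 9 members. The share of all genes that were highest in this well is not given, so that count is a description only. FOS was at 152 TPM there against 6.68 to 13.5 TPM (median 10.3) in the others, FOSB at 31.8 against 0.32 to 1.29 (median 0.59), and ATF3 at 108 against 13.8 to 29.95 (median 18.1). The exception was JUND, at 25.9 TPM against 26.98 to 71.2. The FOS value rested on 70 counts, with an exact 95% Poisson interval of 54.6 to 88.4, where the median share of the other wells would have given 4.74 counts. The FOSB value rested on 19 counts (11.4 to 29.7), where 0.353 would have been given. Such intervals cover counting error only, and both lie above the counts that the other wells would have given. The cause was not tested.

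**Figure D1:**
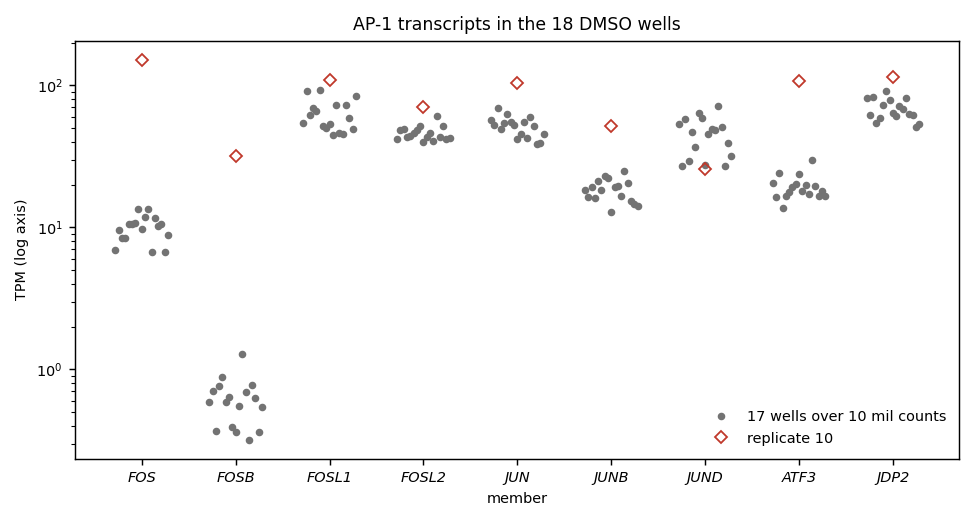
TPM of the 9 genes in each of the 18 DMSO wells (log axis): filled points are the 17 wells over 10 mil counts and the open diamond is replicate 10. The diamond lies above all filled points for every gene except JUND, with FOS at 152 TPM and FOSB at 31.8 TPM.

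With homoharringtonine, FOS mRNA was the highest or second highest of the members in every well. It was 271, 291 and 328 TPM in the 3 wells at 100 nM, 890, 779 and 696 TPM at 1000 nM, and 844, 787 and 756 TPM at 10000 nM, against a median of 10.3 TPM in the 17 DMSO wells. All 9 wells lay above all 18 DMSO wells. The log2(Fold Change) of the edgeR fit was 5.15 ± 0.33 (SE), 6.34 ± 0.34 and 6.28 ± 0.33 at the 3 doses, or 35.4-, 80.8- and 77.9-fold. The values measure RNA per library, so fewer cells and less RNA per cell cannot be told apart here or in any comparison below.

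FOSB, the close relative of FOS that was nearly silent under DMSO, was 39.7, 42.1 and 41.3 TPM in the wells at 100 nM, 140, 126 and 100 TPM at 1000 nM, and 132, 126 and 106 TPM at 10000 nM. It stood above every DMSO well, replicate 10 included, and its log2(Fold Change) of 6.15 ± 0.33, 7.54 ± 0.32 and 7.45 ± 0.30 was the largest of the 9 at each dose. FOSL1 went the other way with dose: 453, 465 and 541 TPM at 100 nM, 354, 281 and 273 TPM at 1000 nM, and 187, 196 and 179 TPM at 10000 nM, all above the DMSO wells. Its log2(Fold Change) was 3.23 ± 0.16, 2.39 ± 0.17 and 1.53 ± 0.18. FOSL2 was 91.5, 97.5 and 98.8 TPM at 100 nM, 123, 96.6 and 98.0 TPM at 1000 nM, and 70.7, 68.5 and 68.2 TPM at 10000 nM. At the highest dose those wells overlapped DMSO replicate 10 (70.9 TPM) but not the other 17 DMSO wells.

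Among the JUN genes, JUN was 161, 186 and 210 TPM at 100 nM, 451, 364 and 306 TPM at 1000 nM, and 432, 396 and 337 TPM at 10000 nM, with log2(Fold Change) of 2.05 ± 0.16, 2.91 ± 0.16 and 2.80 ± 0.15. JUNB was 122, 132 and 160 TPM at 100 nM, 310, 251 and 203 TPM at 1000 nM, and 242, 238 and 192 TPM at 10000 nM, with 3.12 ± 0.17, 3.84 ± 0.17 and 3.5 ± 0.16. Both genes lay above every DMSO well in all 9 homoharringtonine wells. JUND was 16.4, 20.6 and 28.2 TPM at 100 nM, 72.1, 45.1 and 35.0 TPM at 1000 nM, and 59.4, 50.2 and 34.5 TPM at 10000 nM, which overlapped the DMSO wells at each dose. Its log2(Fold Change) was −0.79 ± 0.23, 0.31 ± 0.23 and 0.21 ± 0.21, and the last turned to −0.12 when libraries were scaled to their mitochondrial mRNAs.

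ATF3 and JDP2, which are close in their bZIP sequence, went in opposite directions. ATF3 was 119, 116 and 122 TPM at 100 nM, 596, 545 and 505 TPM at 1000 nM, and 682, 693 and 590 TPM at 10000 nM, above every DMSO well, with log2(Fold Change) of 2.78 ± 0.24, 4.99 ± 0.22 and 5.20 ± 0.22. JDP2, the most abundant member under DMSO, was 2.09, 1.65 and 2.40 TPM at 100 nM, 3.16, 1.97 and 1.99 TPM at 1000 nM, and 2.13, 1.78 and 1.92 TPM at 10000 nM. The lowest DMSO well held 51.0 TPM of JDP2, and the log2(Fold Change) was −5.01 ± 0.28, −5.13 ± 0.29 and −5.56 ± 0.26. FOS, its neighbour on chromosome 14, was thus the second most increased member at every dose while JDP2 was the only one below all DMSO wells at every dose.

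At an adjusted p under 0.05 (edgeR quasi-likelihood test, Benjamini-Hochberg), 9, 8 and 8 of the 9 members would be called at 100, 1000 and 10000 nM of homoharringtonine, 7 of them higher at each dose. The same test called 63.4%, 68.4% and 74.0% of all genes. Because the list was chosen on this contrast, nothing is read from these counts. The median log2(Fold Change) of the 9 was 2.78, 2.91 and 2.80, and of all genes tested −0.03, −0.01 and −0.05. Without DMSO replicate 10 the log2(Fold Change) was 5.27, 6.5 and 6.43 for FOS, 6.22, 7.63 and 7.53 for FOSB and 2.86, 5.09 and 5.30 for ATF3.

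**Figure D2:**
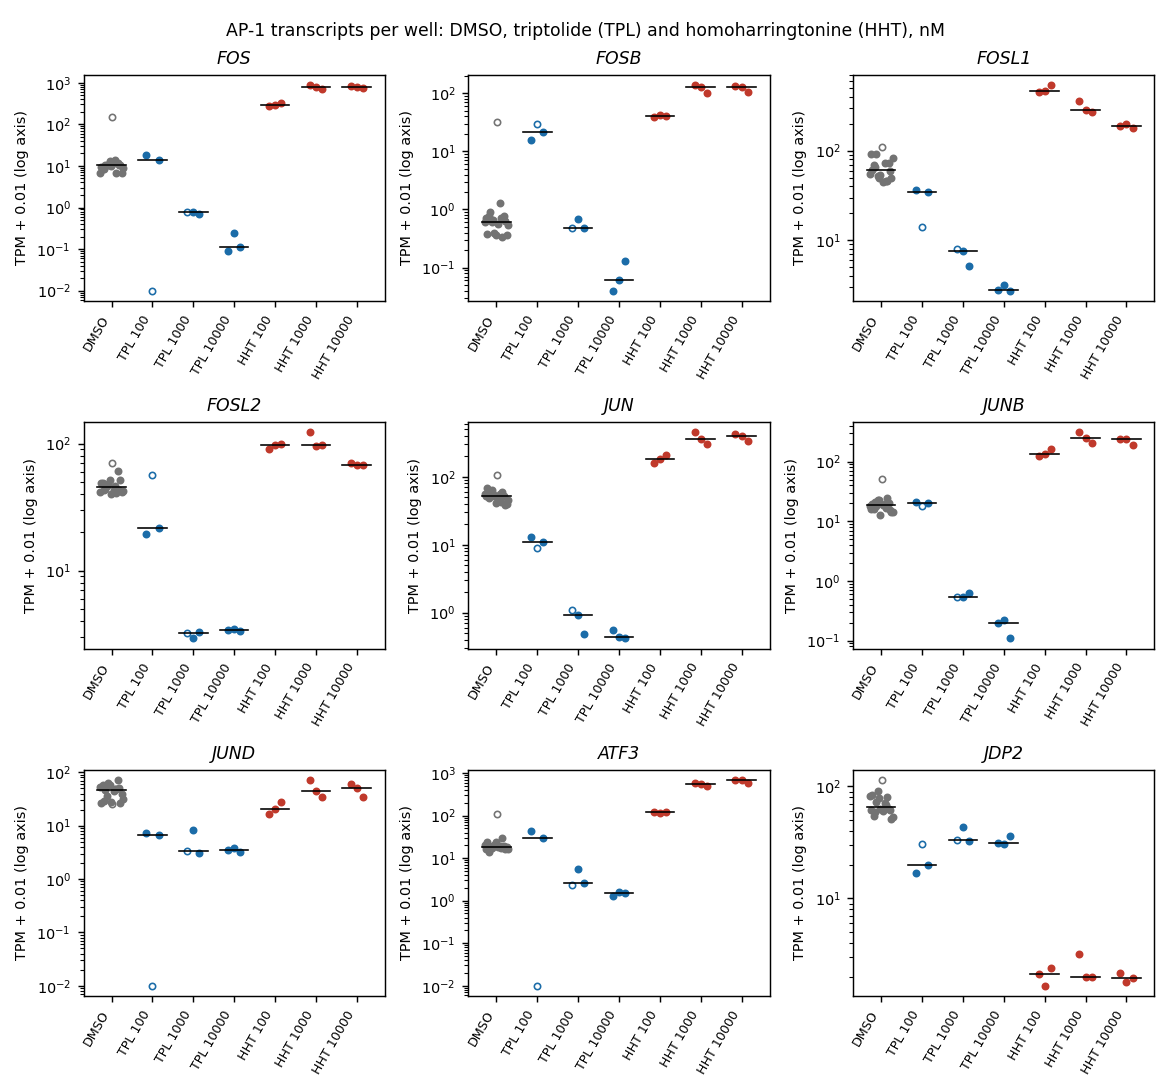
TPM + 0.01 per well (log axis) for each gene with DMSO, triptolide (TPL) and homoharringtonine (HHT) at 100, 1000 and 10000 nM. Each point is a well, open points are the 3 libraries under 10 mil counts, and bars are group medians; FOSB is high at TPL 100 and falls at the higher doses, and JDP2 is lowest with HHT.

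The change with dose among the 9 homoharringtonine wells was tested as a slope on log10 dose, without DMSO. The list was drawn up with these same wells in view, so the slope tests are not independent of that choice. Of the 9 members, 7 passed, 5 rising with dose and 2 falling, in a test that called 44% of all genes. ATF3 rose by 1.19 ± 0.21 per 10-fold dose on the log2 scale (adjusted p = 0.0011), FOSB by 0.63 ± 0.16 (adjusted p = 0.0076), FOS by 0.55 ± 0.13 (adjusted p = 0.006), JUND by 0.49 ± 0.17 (adjusted p = 0.041) and JUN by 0.37 ± 0.13 (adjusted p = 0.034). FOSL1 fell by 0.86 (SE 0.08, adjusted p = 2.8e-05) and FOSL2 fell by 0.38 (SE 0.07, adjusted p = 0.0011). The slopes of JUNB (0.18 ± 0.14, adjusted p = 0.32) and JDP2 (−0.29 ± 0.14, adjusted p = 0.12) did not pass. Leaving out replicate 2 at each dose left 3 members past the threshold, those being FOSL1, FOSL2 and ATF3, and FOS (adjusted p = 0.062), FOSB (0.069), JUN (0.20) and JUND (0.27) missed it.

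With triptolide at 100 nM the members split. FOSB was 15.8, 29.7 and 22.0 TPM in the 3 wells, of which the second is the library of 70767 counts, where it rested on 3 counts. Both deep wells lay above all DMSO wells except replicate 10, and FOSB rose by 5.19 ± 0.39 on the log2 scale, or 36.5-fold (adjusted p = 1e-10), and by 5.35 ± 0.19 (adjusted p = 3.7e-15) without the shallow libraries. ATF3 was 43.8, 0 and 29.6 TPM and rose by 1.21 ± 0.33 (adjusted p = 0.003). JUNB was 21.3, 17.8 and 19.9 TPM, within the DMSO range of 12.8 to 24.9 TPM, and passed at 0.67 ± 0.23 (adjusted p = 0.015). FOS was 17.98, 0 and 13.7 TPM with a log2(Fold Change) of 1.07 ± 0.51 (adjusted p = 0.08), and it passed at 1.36 ± 0.20 (adjusted p = 3.8e-06) without the shallow libraries. A count of 0 in the second well allows up to 3 counts, or 42.4 CPM (counts scaled to a library of 1000000), above the 10.9 and 19.4 CPM of FOS and ATF3 under DMSO, so a 0 there does not set either apart from DMSO. Without the shallow libraries ATF3 was at 1.43 and JUNB at 0.75.

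At the same dose the other members were lower, although FOSL1 did not pass the test. JUN was 13.03, 8.79 and 10.96 TPM against a lowest DMSO well of 38.3 TPM and fell by 1.60 on the log2 scale (SE 0.25, adjusted p = 5.9e-06). JUND was 7.34, 0 and 6.76 TPM and fell by 1.93 (SE 0.32, adjusted p = 1.3e-05). Both deep wells lay below all DMSO wells, whereas the 0 allows more than the 35.2 CPM of JUND under DMSO. JDP2 was 17.02, 30.4 and 19.9 TPM, also below all DMSO wells, and fell by 1.47 (SE 0.23, adjusted p = 9.2e-06). FOSL2 was 19.3, 57.1 and 21.8 TPM, where only the shallow well overlapped DMSO, and fell by 0.98 (SE 0.09, adjusted p = 4.3e-09). FOSL1 was 36.0, 14.1 and 34.4 TPM, below all DMSO wells, with a log2(Fold Change) of −0.42 ± 0.24 (adjusted p = 0.13). In all, 7 of 9 members passed, 3 higher and 4 lower, beside 24.5% of all genes called higher and 32.3% called lower. Without the shallow libraries JUN was at −1.52, JUND at −1.90, JDP2 at −1.42, FOSL2 at −0.92 and FOSL1 at −0.35, and 8 of 9 passed, beside 57.4% of all genes, against 56.8% with them.

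At 1000 nM of triptolide FOS was 0.75, 0.79 and 0.67 TPM, JUN 1.10, 0.91 and 0.47 TPM, and JUNB 0.53, 0.53 and 0.63 TPM, all below every DMSO well. JUN fell by 5.52 on the log2 scale (SE 0.32, adjusted p = 1.8e-13), JUNB fell by 4.37 (SE 0.33, adjusted p = 2.1e-11) and FOS fell by 3.31 (SE 0.72, adjusted p = 0.00025). FOSL2 (−3.14), JUND (−2.72), FOSL1 (−2.67) and ATF3 (−2.16) passed as well, so that 7 of 9 members were lower, beside 38.6% of all genes called lower and 67.4% called in either direction. FOSB was back at 0.47, 0.68 and 0.47 TPM, inside the DMSO range (log2(Fold Change) 0.11 ± 0.66, adjusted p = 0.90). JDP2 was 33.0, 43.5 and 32.3 TPM, below the lowest DMSO well, but its log2(Fold Change) of −0.32 ± 0.18 did not pass (adjusted p = 0.13). Without the shallow libraries the same 7 passed, with FOS at −2.98, JUN at −5.72, JUNB at −4.27, FOSL2 at −3.15, JUND at −2.64, FOSL1 at −2.71 and ATF3 at −1.79, and FOSB was at 0.25.

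At 10000 nM all 9 members passed as lower, beside 39.7% of all genes called lower and 71.8% called in either direction. FOSB was 0.03, 0.05 and 0.12 TPM on 3, 5 and 5 counts, and fell by 3.12 (SE 0.87, adjusted p = 0.0024). FOS was 0.08, 0.23 and 0.10 TPM and fell by 5.67 (SE 0.85, adjusted p = 1.9e-06). JUN at 0.55, 0.43 and 0.41 TPM and JUNB at 0.19, 0.21 and 0.10 TPM fell furthest, by 6.10 (SE 0.30, adjusted p = 3.3e-15) and 6.09 (SE 0.37, adjusted p = 2.2e-13). ATF3 (1.28, 1.56 and 1.48 TPM) fell by 3.26, FOSL1 (2.82, 3.19 and 2.74 TPM) by 3.86, FOSL2 (3.37, 3.48 and 3.34 TPM) by 2.98 and JUND (3.49, 3.83 and 3.23 TPM) by 2.84. JDP2 remained the most abundant member at 31.3, 30.6 and 36.0 TPM, and its decrease of 0.46 (SE 0.18, adjusted p = 0.024) was lost in DESeq2 (−0.30, adjusted p = 0.14), with DESeq2 size factors (−0.29, adjusted p = 0.16) and without replicate 1 (adjusted p = 0.083) or 2 (adjusted p = 0.064). Without the shallow DMSO well all 9 passed as well, with FOS at −5.45, FOSB at −2.94, JUN and JUNB both at −6.05, ATF3 at −3.15 and JDP2 at −0.44.

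The 13 mitochondrially encoded mRNAs took 0.518% to 1.15% of counts in the triptolide wells and 0.138% to 0.367% in the DMSO wells. When libraries were scaled to these mRNAs, the median of all genes moved from −0.16 to −1.81 at 100 nM, from −0.21 to −2.68 at 1000 nM and from −0.17 to −2.92 at 10000 nM on the log2 scale. Under that scaling FOSB at 100 nM was still higher (log2(Fold Change) 3.47), whereas ATF3 turned to −0.55 (adjusted p = 0.25), JUNB to −1.04 (adjusted p = 0.019) and FOS to −0.70. ATF3 also missed the threshold in DESeq2 (0.81, adjusted p = 0.16) and both ATF3 (adjusted p = 0.11) and JUNB (adjusted p = 0.14) did so without replicate 1. The part that mitochondrial RNA played in the results was not tested.

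Over the 9 triptolide wells, 7 of 9 members fell with dose, in a slope test that called 24.7% of all genes. The steepest was FOSB, which fell by 4.34 on the log2 scale per 10-fold dose (SE 0.21, adjusted p = 1.9e-07), followed by JUNB (−3.55 ± 0.29, adjusted p = 1.6e-05), FOS (−3.48 ± 0.28, adjusted p = 1.6e-05), JUN (−2.26 ± 0.27, adjusted p = 0.00012) and ATF3 (−2.24 ± 0.26, adjusted p = 0.00011). FOSL1 fell by 1.72 and FOSL2 fell by 1.0. JUND (−0.48 ± 0.17, adjusted p = 0.056) passed only without the shallow libraries (−0.49, adjusted p = 0.032), and JDP2 did not pass (0.40 ± 0.18, adjusted p = 0.12). FOSB, JUNB and ATF3 thus passed as higher than DMSO at 100 nM and as lower at 10000 nM, with a slope that passed. The 3 JUNB wells at 100 nM lay within the DMSO range in TPM. With library sizes only, the JUNB value at that dose did not pass in edgeR (0.34, adjusted p = 0.24).

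**Figure D3:**
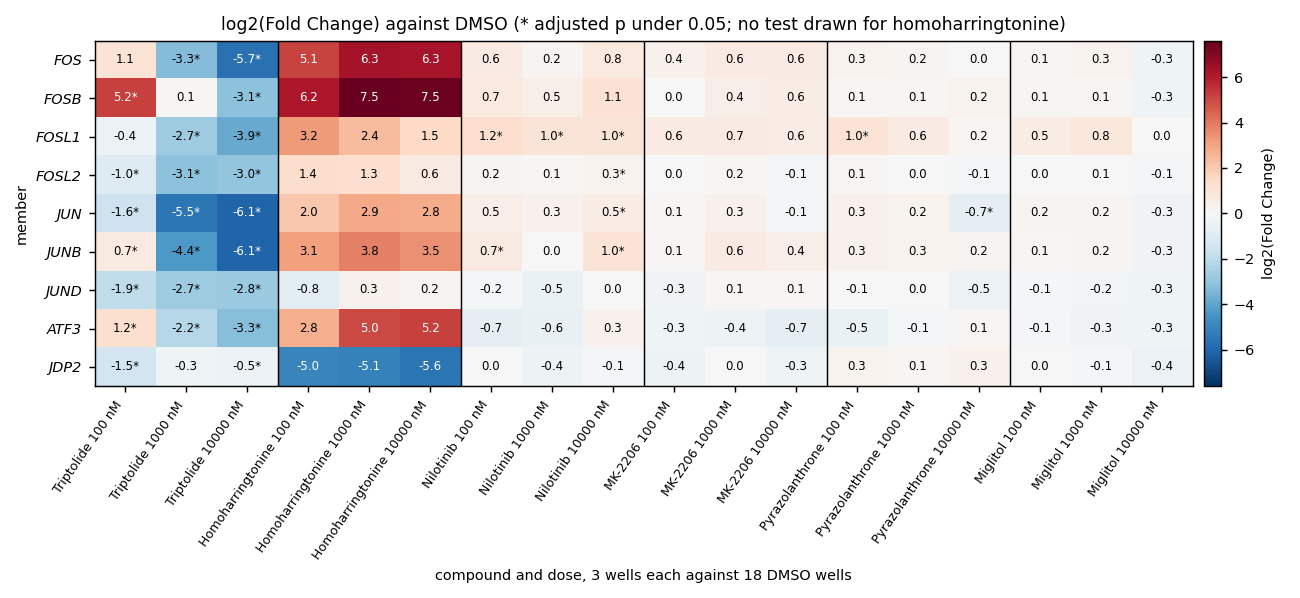
log2(Fold Change) of the 9 genes (rows) in the 18 comparisons of 3 wells with 18 DMSO wells (columns, grouped by compound), red higher and blue lower; an asterisk marks an adjusted p under 0.05, and none is drawn for homoharringtonine. FOSB is at 5.19 with triptolide 100 nM and JDP2 is at −5.01 to −5.56 with homoharringtonine, while most cells for MK-2206 and miglitol are within 1 of 0.

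**Figure D4:**
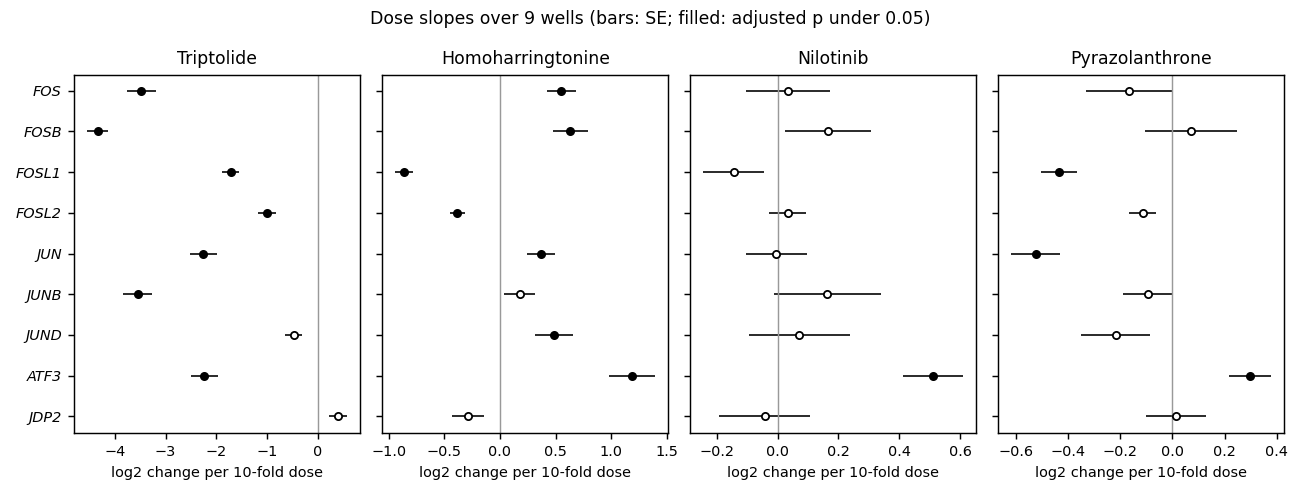
Slope of each gene on log10 dose over the 9 wells of triptolide, homoharringtonine, nilotinib and pyrazolanthrone, as log2 change per 10-fold dose, with bars of 1 SE and filled points at an adjusted p under 0.05. FOSB falls by 4.34 with triptolide and ATF3 rises by 1.19 with homoharringtonine; the x axes differ in range.

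FOSL1 was higher with nilotinib at each dose. FOSL1 was 133, 142 and 154 TPM at 100 nM, 136, 138 and 89.5 TPM at 1000 nM, and 144, 132 and 113 TPM at 10000 nM, against 44.8 to 92.1 TPM (median 58.9) in the 17 DMSO wells and 109 TPM in replicate 10. Only the third well at 1000 nM overlapped the DMSO wells. The log2(Fold Change) was 1.25 ± 0.18 (adjusted p = 0.00013), 0.97 ± 0.19 (adjusted p = 0.0038) and 0.99 ± 0.18 (adjusted p = 0.00053). The 1000 nM value missed the threshold without replicate 2 (adjusted p = 0.065). With the replicate number as a block, FOSL1 missed it at 100 nM (1.11, adjusted p = 0.72) and at 1000 nM (0.77, adjusted p = 0.69). Positive values of FOSL1 were not limited to nilotinib. Without the shallow libraries and with each library's GC slope in the model, it was at 0.66, 0.62 and 0.57 with MK-2206. The same fits gave 0.50, 0.79 and 0.08 with miglitol, in both cases at 100, 1000 and 10000 nM.

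JUNB rose with nilotinib at 10000 nM, where its wells held 40.6, 41.6 and 37.1 TPM against 12.8 to 24.9 TPM in the 17 DMSO wells, with replicate 10 at 51.4 TPM. Its log2(Fold Change) there was 1.02 ± 0.18 (adjusted p = 0.00031). At 100 nM its wells held 20.5, 33.7 and 29.0 TPM, and a log2(Fold Change) of 0.66 ± 0.21 (adjusted p = 0.049) was lost without replicate 2 (adjusted p = 0.48) or 3 (adjusted p = 0.23). JUN at 10000 nM was 90.2, 77.4 and 74.1 TPM, above the 17 deep DMSO wells, and rose by 0.55 ± 0.17 (adjusted p = 0.034), a call that leaving out any 1 of its wells removed. FOSL2 was 58.7, 56.7 and 51.7 TPM and rose by 0.29 ± 0.06 (adjusted p = 0.0011). Under the mitochondrial scaling, which shifted the median of all genes by −0.69 at this dose, JUN was at −0.21, FOSL2 at −0.41, FOSL1 at 0.28 (adjusted p = 0.36) and JUNB at 0.27 (adjusted p = 0.43), and FOSL1 at 1000 nM missed the threshold (adjusted p = 0.052). Mitochondrial mRNAs took 0.35% to 0.387% of counts in these wells.

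In all, 2, 1 and 4 of 9 members passed at 100, 1000 and 10000 nM of nilotinib, beside 9.08%, 3.95% and 14.4% of all genes. The counts moved when DMSO replicate 10, the shallow library in these comparisons, was left out: 7, 2 and 7 of 9 then passed, beside 11.6%, 5.21% and 16.6% of all genes. At 10000 nM the added members were FOS (20.8, 22.5 and 14.8 TPM, log2(Fold Change) 0.95 ± 0.17, adjusted p = 0.00028), FOSB (1.33, 1.57 and 1.17 TPM, 1.26 ± 0.21, adjusted p = 0.00021) and ATF3 (23.7, 21.0 and 28.5 TPM, 0.43 ± 0.11, adjusted p = 0.008). At 100 nM they were FOS (0.86, adjusted p = 0.0027), FOSB (0.91, adjusted p = 0.012), JUN (0.57, adjusted p = 0.015), FOSL2 (0.20, adjusted p = 0.043) and ATF3, which was lower (12.0, 10.3 and 11.9 TPM, −0.61, adjusted p = 0.0027). ATF3 was also lower at 1000 nM (−0.45, adjusted p = 0.02). Its slope on nilotinib dose, 0.51 ± 0.10 (adjusted p = 0.027), was the only one of 9 to pass, beside 3.09% of all genes, and it was lost without replicate 2 (adjusted p = 0.16) or 3 (adjusted p = 0.50). JUND and JDP2 passed at no nilotinib dose with or without the shallow library, but with GC slope in the model as well both passed as lower at 100 nM (−0.51, adjusted p = 0.015, and −0.32, adjusted p = 0.013).

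As background to pyrazolanthrone, JNK phosphorylates JUN, and JUN takes part in the transcription of its own gene. JNK activity was not measured here, and the cause of the values below was not tested. JUN was 57.2, 65.4 and 67.0 TPM at 100 nM, 59.9, 63.5 and 55.9 TPM at 1000 nM, and 35.8, 33.8 and 30.8 TPM at 10000 nM. At the highest dose all 3 wells lay below the lowest DMSO well, 38.3 TPM. JUN fell by 0.68 there on the log2 scale (SE 0.19, adjusted p = 0.028), and it was the only one of 9 members to pass, beside 7.65% of all genes. Without the shallow libraries the decrease was 0.64 (adjusted p = 0.011), and without any 1 of the 3 wells the call was lost (adjusted p = 0.13 to 0.14). The other 8 members had log2(Fold Change) between −0.47 (JUND) and 0.34 (JDP2) at 10000 nM.

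At 100 nM of pyrazolanthrone FOSL1 was 115, 130 and 114 TPM, above all DMSO wells, and rose by 1.02 ± 0.18 (adjusted p = 0.004), the only one of 9 to pass beside 4.77% of all genes. The call was lost without replicate 2 (adjusted p = 0.062). The mean fragment length of these 3 libraries was 151 to 155 bases, against 144 to 217 bases under DMSO, and with fragment length in the model FOSL1 was at 0.88 (adjusted p = 0.11). At 1000 nM no member passed in edgeR, beside 0.0% of all genes, 1 had an unadjusted p under 0.05, and none passed in DESeq2. Over dose, 3 of 9 members passed, beside 18.6% of all genes: JUN fell by 0.52 per 10-fold dose (SE 0.09, adjusted p = 0.013), FOSL1 fell by 0.43 (SE 0.07, adjusted p = 0.0094) and ATF3 rose by 0.30 ± 0.08 (adjusted p = 0.033). All 3 were lost without replicate 2 of each dose and without replicate 3 of each dose. The mean fragment length of the groups was 153, 185 and 189 bases at 100, 1000 and 10000 nM. Their mean GC slope was 0.16, 0.10 and −0.21. No slope was fitted with either measure in the model, so their part in these slopes was not tested.

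**Figure D5:**
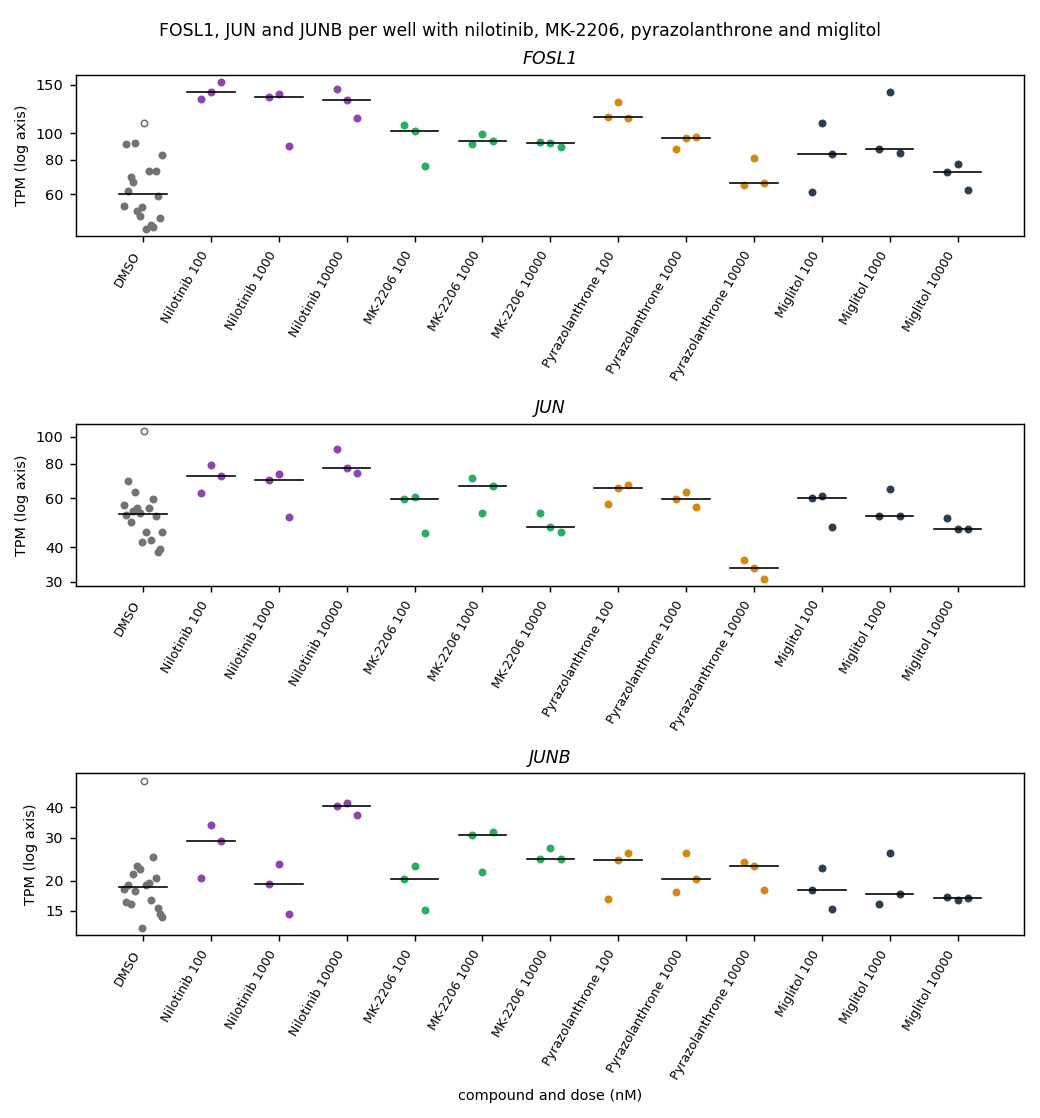
TPM per well (log axis) of FOSL1, JUN and JUNB with DMSO and with nilotinib, MK-2206, pyrazolanthrone and miglitol at 100, 1000 and 10000 nM; points are wells, bars are group medians and the open point is DMSO replicate 10. FOSL1 is above the DMSO wells in all but 1 of the nilotinib wells, and JUN is below them with pyrazolanthrone at 10000 nM.

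With MK-2206 no member passed in edgeR at any dose, beside 0.0648%, 1.52% and 3.15% of all genes at 100, 1000 and 10000 nM. At an unadjusted p under 0.05 there were 1, 3 and 4 members, and DESeq2 called 0, 1 and 1. In every comparison, counts at an unadjusted p or in DESeq2 come without a share of all genes and are a description only. FOS was 19.2, 16.2 and 18.97 TPM at 1000 nM and 14.8, 20.7 and 17.2 TPM at 10000 nM, above the 17 deep DMSO wells at both doses. Without the shallow libraries it passed at 0.80 ± 0.17 (adjusted p = 0.011) and 0.85 ± 0.17 (adjusted p = 0.0027). JUNB at 1000 nM (30.8, 21.8 and 31.8 TPM, 0.66 ± 0.16, adjusted p = 0.028) and ATF3 at 10000 nM (11.4, 11.7 and 15.7 TPM, −0.54 ± 0.11, adjusted p = 0.005) passed likewise, in fits that called 2.03% and 4.2% of all genes. No member passed over MK-2206 dose, beside 0.028% of all genes, and 1 had an unadjusted p under 0.05.

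With miglitol no member and no gene (0.0%) passed in edgeR at any dose, and 1 member had an unadjusted p under 0.05 at each. DESeq2 called 0, 1 and 0 members at 100, 1000 and 10000 nM. The largest change was FOSL1 at 1000 nM, with 87.4, 141 and 84.6 TPM and a log2(Fold Change) of 0.82 (adjusted p = 0.13). Over miglitol dose 15.9% of genes were called and none of the members, 2 of which had an unadjusted p under 0.05.

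Other genes of the pathway were followed in 3 lists: bZIP partners of the MAF, BATF and ATF families (11 of 12 tested), upstream kinases, ternary complex factors and ubiquitin ligases that act on JUN (19 of 20 tested), and genes known as AP-1 targets (all 21 tested). Without the shallow libraries no count of list genes higher or lower given below moved by more than 1. With homoharringtonine, partners passed as 5, 6 and 7 higher and 3, 3 and 3 lower at 100, 1000 and 10000 nM, beside the 63.4%, 68.4% and 74.0% of all genes called in either direction. The median log2(Fold Change) of the list was 0.34, 0.68 and 0.53, while all genes tested were at −0.03, −0.01 and −0.05. MAFF, a small MAF protein, rose by 4.63, 5.27 and 4.89, from 13.04 ± 3.19 TPM in the 17 deep DMSO wells to 287 ± 17.3, 501 ± 68.0 and 426 ± 27.5 TPM, and MAFA, a large MAF factor, rose by 1.64, 2.18 and 1.69. BATF3, which pairs with JUN proteins, fell by 0.71, 1.98 and 2.23. ATF2, a target of JNK and p38, fell by 0.69 at 100 nM. MAFF also rose with triptolide at 100 nM (1.84 ± 0.30, adjusted p = 1.5e-05).

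For the upstream list, 4, 9 and 10 genes were higher and 7, 4 and 4 lower with homoharringtonine, with a median of −0.12, 0.34 and 0.32, again beside 63.4%, 68.4% and 74.0% of all genes. ITCH, a ubiquitin ligase of JUN and JUNB, rose by 1.05, 1.41 and 1.86. ELK3, a ternary complex factor known mainly as a repressor, fell by 2.36 and 2.62 at the 2 higher doses, from 55.8 ± 6.66 TPM to 10.9 ± 1.03 and 10.4 ± 0.682 TPM, and ELK1 fell by 0.61 at 100 nM and 0.76 at 10000 nM. RPS6KA2, a kinase of the RSK family, fell by 1.92 and 1.12 at 100 and 1000 nM. MAPK8, which encodes a JNK, rose by 0.86 at 100 nM, MAP2K4, a kinase that activates JNK, rose by 0.72 at 1000 nM, and FBXW7, a ubiquitin ligase subunit acting on JUN, rose by 1.02 at 10000 nM.

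Targets under homoharringtonine were 9, 8 and 7 higher and 7, 10 and 10 lower, beside the same shares of all genes, with a median of 0.23, −0.29 and −0.30. CXCL8, the chemokine interleukin-8, rose by 5.77, 6.25 and 6.39, to 43.0 ± 16.8, 69.8 ± 25.6 and 84.6 ± 10.4 TPM from 0.968 ± 0.351 TPM in the 17 deep DMSO wells, IL6 rose by 3.59 and 3.72 at the higher doses and LIF by 3.27 at 100 nM. MMP3, a stromelysin and a classic AP-1 target, fell by 0.96, 2.89 and 3.16, and CCL2, a monocyte chemokine, had log2(Fold Change) of −1.33, −2.04 and −2.41.

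With triptolide, partners were 4, 1 and 1 higher and 5, 6 and 8 lower, upstream genes 4, 5 and 6 higher and 9, 8 and 9 lower, and targets 11, 14 and 14 higher and 6, 3 and 4 lower. Of all genes, 56.8%, 67.4% and 71.8% were called in either direction, and 32.3%, 38.6% and 39.7% as lower. The medians of the target list were 0.6, 1.03 and 0.996, where all genes tested were at −0.16, −0.21 and −0.17. These directions are relative to the library, and the shift of all genes under mitochondrial scaling given above is larger than each of these medians. Among the targets MMP9, a gelatinase, rose by 1.63, 1.89 and 1.94, HMOX1, heme oxygenase, fell by 2.41, 4.99 and 4.83, LIF fell by 2.40 at 100 nM, and VEGFA fell by 1.86 and 1.89 at the higher doses. MMP13, a collagenase, passed as higher by 2.28, 1.68 and 2.06, and by 2.41, 2.02 and 2.14 without the shallow libraries, where its mean TPM was 1.33, 1.08 and 0.980 in treated wells and 0.421 ± 0.181 under DMSO. With them its DMSO mean was 1.22 ± 3.38 TPM. Upstream, MAPK14, which encodes p38 alpha, fell by 2.41, 3.57 and 3.17, MAP2K7, an activator of JNK, fell by 1.84 at 100 nM, and FBXW7 fell by 3.37 and 3.33 at the higher doses. MAPK3, an ERK, rose by 0.79, 1.31 and 1.48 and MAPK9, a JNK, by 0.72, 1.35 and 1.52. Among partners NRL (2.23) was higher and ATF7 (−1.44) and BATF3 (−1.22) lower at 100 nM, MAF was higher at 1000 nM (1.15) and 10000 nM (1.17), MAFA was lower at both (−1.59 and −2.08), and BATF2 was lower at 1000 nM (−2.27).

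With nilotinib the target list went mostly 1 way: 10, 10 and 14 of 21 were higher and 0, 0 and 1 lower, with medians of 0.48, 0.55 and 0.81 beside −0.05, 0.02 and 0.01 for all genes. Of all genes, 5.5%, 2.51% and 7.97% were called higher. These directions are relative to the library. Scaling to mitochondrial mRNAs shifted the median of all genes by 0.45, 0.09 and −0.69 at the 3 doses, and list counts under that scaling are not given. The median of the list was also above that of all genes with miglitol at 100 nM (0.22 beside −0.03) and 1000 nM (0.35 beside −0.04). At 10000 nM of miglitol it was not (−0.06 beside −0.03). At the 3 doses it was 0.31, 0.30 and 0.07 with MK-2206 and 0.36, 0.27 and 0.12 with pyrazolanthrone. At 10000 nM CXCL8 rose by 8.29 ± 0.23 (adjusted p = 4.5e-18), from 0.968 ± 0.351 TPM in the 17 deep DMSO wells to 338 ± 93.8 TPM, and CCL2 by 4.34 ± 0.16 (adjusted p = 1e-15), from 3.22 ± 0.797 to 69.5 ± 13.96 TPM, while EZR, which encodes the membrane linker ezrin, fell by 0.29. At 100 nM LIF rose by 1.10, and at 1000 nM the stromelysin MMP10 rose by 1.49 and the collagenase MMP1 by 1.12. Of the other lists 3, 2 and 2 partners and 2, 1 and 2 upstream genes were higher, and 0, 1 and 0 partners (MAF at 1000 nM, −0.83) and 0, 0 and 2 upstream genes were lower. MAFF (1.19, 1.03 and 1.55) and BATF2 (0.92, 1.11 and 1.10) were higher at each dose, as was ELK3 (0.46, 0.71 and 0.61). MAP2K7 was higher at 100 nM (0.49), and at 10000 nM RPS6KA2 was higher (0.51) and RPS6KA1 (−0.55) and MAPK7 (−0.47), the ERK5 gene, were lower.

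With pyrazolanthrone, targets were 7, 0 and 4 higher and none lower, beside 3.2%, 0.0% and 3.35% of all genes called higher. PLAU, the urokinase gene, rose by 0.85 at 100 nM and 0.67 at 10000 nM, and CXCL8 rose by 1.16 at 10000 nM. BATF3 (0.65) and ELK3 (0.38) were higher at 100 nM, RPS6KA2 (0.81) was higher at 10000 nM, and RPS6KA1 (−0.53) and MAF (−0.71) were lower there. With MK-2206, 1, 4 and 4 targets were higher and 0, 0 and 1 lower, beside 0.0648%, 1.52% and 3.15% of all genes called in either direction. PLAU rose by 0.85, 1.04 and 0.97 at the 3 doses, TIMP1, an inhibitor of metalloproteinases, by 0.78 at 1000 nM, and MMP10 by 1.41 at 10000 nM, where GJA1, the connexin 43 gene, fell by 0.75. ELK3 was higher at 1000 nM (0.48) and 10000 nM (0.39) and MAF at 10000 nM (0.68). With miglitol no gene of the 3 lists passed against DMSO at any dose. Over miglitol dose 1 partner passed as falling (BATF3, −0.36 per 10-fold dose) and 6 upstream genes as rising, among them MAPK8 (0.61) and RPS6KA3 (0.60). No target passed there, and 15.9% of all genes were called.

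Over the 19 conditions, the members' mean levels were compared with those of 12657 protein-coding genes by Pearson's r of log2(CPM + 1). The conditions share the wells that set the extremes, nearly all of them homoharringtonine and triptolide wells, so r is a description. Most like FOS were NOCT (r = 0.994), which encodes nocturnin, NR1D1 (r = 0.993), a circadian repressor, and ZNF267 (r = 0.986). NR1D1 rose from 19.9 CPM under DMSO to 688 with homoharringtonine 10000 nM and was at 1.44 with triptolide 10000 nM. Most like FOSB were PCDH8 (r = 0.989), SCRT1 (r = 0.983) and DISP3 (r = 0.979), at 1.24, 0.795 and 0.605 CPM under DMSO. FOSL1 was most like RELA (r = 0.984), the NF-kappaB subunit, VPS37B (r = 0.984) and AEN (r = 0.980), and FOSL2 most like AEN (r = 0.995), DUSP11 (r = 0.991) and PPRC1 (r = 0.990).

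For JUN the closest were JMJD6 (r = 0.994), TNKS1BP1 (r = 0.992) and MIDEAS (r = 0.991), for JUNB BCL10 (r = 0.993), ZNF408 (r = 0.989) and TBC1D10A (r = 0.986), and for JUND ARMCX3 (r = 0.985), SP8 (r = 0.984) and WDR91 (r = 0.980). ATF3 was most like RND1 (r = 0.993), ZNF280A (r = 0.982) and STARD5 (r = 0.978). JDP2 was most like DPYSL2 (r = 0.988), PGP (r = 0.984) and EXTL3 (r = 0.983), all 3 lowest with homoharringtonine 10000 nM. Among the members themselves the closest pairs were FOSL2 with JUN (r = 0.976) and FOS with ATF3 (r = 0.970), and the most opposed was FOSB with JDP2 (r = −0.950). The list was drawn up with FOSB very high and JDP2 very low under homoharringtonine, so nothing is read from that last pair.

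The deposited files also give each gene's length averaged over its transcripts by their estimated abundance, which moves when transcript use changes. JUN and JUNB have a single length in every well (3540 and 1820 bases). Over FOS, FOSL1, FOSL2, JUND, ATF3 and JDP2, 77 exact permutation tests (two-sided, wells with at least 100 counts) against DMSO found none at an adjusted p under 0.05 and 4 at an unadjusted p under 0.05. The smallest p was 0.0088. Over this many tests no single length could pass even at the smallest p that 3 wells against 17 or 18 allow, so nothing is read from the count, and FOSB was not tested. With homoharringtonine, which is described only, FOSL1 averaged 1551, 1552 and 1546 bases at the 3 doses against 1508 ± 18.6 bases (SD, 17 wells) under DMSO. FOS averaged 1976, 1908 and 1994 bases against 1796 ± 148, within the DMSO range of 1457 to 2053 bases for all but 1 well. These lengths rest on the estimated split of reads between transcripts.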

How the data were processed

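U2OS cells, grown in multiwell plates, were exposed for 12 h to DMSO (18 wells) or to 1 of 6 compounds at 100, 1000 or 10000 nM (3 wells each), and poly(A) RNA was sequenced as stranded libraries. The doses are those of the labels. Per the file headers, the authors' RSEM workflow produced, for each gene, the deposited expected counts (estimated reads per gene, not whole), TPM (corrected for gene length and library) and an abundance-weighted gene length; the labels name GRCh38, and versions were not given in the sources used here. FPKM was not used. Symbols, coordinates and exons came from GENCODE 44, which held 56104 of the 60371 Ensembl genes, and promoters from RefSeq (GRCh38.p14).

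Expected counts were rounded, filtered with filterByExpr (minimum count 10), scaled by TMM and tested over all genes with the quasi-likelihood test of edgeR 4.0.16 in R 4.3.3, each compound and dose against all 18 DMSO wells. P-values were adjusted by Benjamini-Hochberg over all genes in the comparison, and passing means an adjusted p under 0.05. Log2(Fold Change) is given with its SE. Slopes on log10 dose used the 9 wells of a compound. TPM served for levels, with mean and SD. Lengths were compared by exact permutation tests. The code was tested on simulated data. The members, lists and tests were chosen with earlier results of these data known. Named by rule were all 9 members, the 3 protein-coding genes (at least 1 CPM) most like each, and from each list the 2 largest rises and 2 largest falls that passed, some of which are not reported here. Libraries held 0.0708 to 68.3 mil counts, and alternatives included DESeq2 1.42.0, other scalings and filters, a replicate block and leaving out wells.

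In the pairs examined, wells of different groups with the same replicate number deviated together no more than wells with different numbers. The mean r was −0.0709 over 52 pairs with the same number, 24 of them over 0.1, against 0.0337 over 104 pairs with different numbers. On this basis the numbers were not taken to pair the wells. These are not all the pairs of wells that share a number, so agreement between compound groups may not be covered. A mean over all these pairs does not show whether some groups were paired. With nilotinib, pyrazolanthrone and miglitol at 1000 nM, the GC slope of the library was −0.40, −0.23 and −0.18 in replicate 1. It was 0.30, 0.28 and 0.33 in replicate 2. With MK-2206, homoharringtonine and triptolide at that dose it was lower in replicate 2 than in replicate 1.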

Additional observations from a re-analysis of the deposited data

Results flagged for a closer look

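FOSB, JUNB and ATF3 passed as higher than DMSO with triptolide at 100 nM and as lower at 10000 nM, and the difference between doses passed as a slope on log10 dose in edgeR (Benjamini-Hochberg over all genes). FOSB, a FOS family factor, had a slope of −4.34 ± 0.21 log2 units per 10-fold dose (adjusted p = 1.9e-07), moving from a log2(Fold Change) of 5.19 through 0.11 to −3.12. JUNB had a slope of −3.55 ± 0.29 (adjusted p = 1.6e-05), from 0.67 through −4.37 to −6.09. ATF3, the stress-induced factor, had a slope of −2.24 ± 0.26 (adjusted p = 0.00011), from 1.21 through −2.16 to −3.26. Without the libraries under 10 mil counts the slopes were −4.32, −3.51 and −2.29. Under mitochondrial scaling the 100 nM values of JUNB (−1.04) and ATF3 (−0.55) were below 0, so that FOSB (3.47) was then the only one of the 3 on opposite sides of DMSO. The JUNB wells at 100 nM lay within the DMSO range in TPM, and its call was lost with library sizes only (adjusted p = 0.24). The ATF3 call was lost in DESeq2 (adjusted p = 0.16). Without replicate 1 both ATF3 (adjusted p = 0.11) and JUNB (adjusted p = 0.14) missed the threshold in edgeR.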

How the results depend on the processing

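Without the libraries under 10 mil counts, the members passing went from 2, 1 and 4 to 7, 2 and 7 with nilotinib at 100, 1000 and 10000 nM and from 0 to 2 with MK-2206 at both 1000 and 10000 nM. Further fits, chosen after seeing the data, left out the same libraries and added the GC slope of each library or its fragment length. With GC slope, 9, 4 and 7 members passed with nilotinib, 3 and 6 with MK-2206 at 1000 and 10000 nM, 2 and 3 with pyrazolanthrone at 100 and 10000 nM and 1 with miglitol at 1000 nM, beside 22.1%, 15.8% and 24.3%, then 7.51% and 13.2%, then 15.6% and 14%, and 2.47% of all genes. With fragment length these counts were 7, 2 and 7, then 2 and 2, then 0 and 2, and 1, beside 13%, 8.56% and 23.2%, then 2.88% and 6.52%, then 0.0325% and 14.8%, and 3.21% of all genes. DESeq2 gave 4 for nilotinib at 100 nM, 1 for MK-2206 at 1000 and at 10000 nM, 2 for pyrazolanthrone at 10000 nM and 1 for miglitol at 1000 nM. For nilotinib at 100 nM, DESeq2 size factors, library sizes only, no filter, and a minimum of 10 counts in every well each gave 1. Scaling to mitochondrial mRNAs gave 0 for nilotinib at 1000 nM, 1 at 10000 nM and 0 for pyrazolanthrone at 10000 nM, and turned the log2(Fold Change) of JUND with homoharringtonine 10000 nM to −0.12, of FOSL2 and JUN with nilotinib 10000 nM to −0.41 and −0.21, and of ATF3 and JUNB with triptolide 100 nM to −0.55 and −1.04. The cause of these changes was not tested.

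With the replicate number as a block (using the 3 DMSO wells that share the numbers), 0 members passed with nilotinib at 100 and 1000 nM and with pyrazolanthrone at 100 nM, 1 with MK-2206 at 10000 nM, 2 with pyrazolanthrone at 10000 nM and 2 with miglitol at 10000 nM. As stated above, the numbers were not taken to pair the wells, but pairing in some groups was not excluded. Leaving out 1 replicate gave 1 to 4 for nilotinib at 100 nM, 0 to 1 at 1000 nM, 3 to 3 at 10000 nM, 0 to 1 for pyrazolanthrone at 100 nM and 0 to 0 at 10000 nM. For the slopes it gave 3 to 6 with homoharringtonine, 0 to 1 with nilotinib and 0 to 3 with pyrazolanthrone. The share of all genes called is not given for DESeq2, the other scalings and filters, the block or the left-out replicates. Member counts under those alternatives are therefore a description only. The triptolide counts stayed within 1.5 times under every alternative run.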
